A study of Mus musculus with 6 samples.

Results

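The cytochrome P450 subfamily 3a (Cyp3a) was examined in mRNA on the ribosomes of mouse hepatocytes that were regrowing the liver after injury. The members were the 8 genes Cyp3a11, Cyp3a13, Cyp3a16, Cyp3a25, Cyp3a41a, Cyp3a41b, Cyp3a44 and Cyp3a59, taken by gene symbol out of 35970 symbols in the table, with the transcripts of each symbol summed. All 6 mice were Fah-/-;dCas9+, which means that they lacked fumarylacetoacetate hydrolase, an enzyme of tyrosine breakdown, and carried dCas9, a Cas9 that binds at a guide's target without cutting and so holds transcription down (CRISPR interference, CRISPRi). They were kept on 7.5 µg/mL nitisinone, the drug that protects Fah-deficient liver, until a hydrodynamic tail vein injection of 10 µg of a transposon plasmid with the virus AAV8.TBG.PI.Cre.rBG, which carries Cre under a hepatocyte promoter. The plasmid was pkt2-fah-GFPL10a-CRISPRi-Nontargeting in 3 mice and pkt2-fah-GFPL10a-CRISPRi-Neurl1b in 3 mice. It gave Fah, a ribosomal protein L10a tagged with GFP, and the guide to those hepatocytes that took it up, so cells without the plasmid carry no tag. Nitisinone was withheld from the injection on, livers were collected 4 weeks later, and tagged ribosomes were pulled down from 400 mg of liver with an antibody to GFP. The sources used here do not give strain, age or sex.

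CYP3A enzymes are haem-containing monooxygenases of the endoplasmic reticulum. They oxidise a wide range of drugs, steroids and bile acids with electrons passed on by cytochrome P450 reductase, and in liver their genes are switched on by the xenobiotic receptors PXR and CAR. In the mouse, Cyp3a11 is the main adult hepatic form, Cyp3a41a and Cyp3a44 are known as female-predominant genes whose levels follow the growth hormone pattern, and Cyp3a16 is known as a fetal and neonatal form.

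The members are close copies of each other, and this bears on every value below, because kallisto divides reads among near-identical transcripts by estimation. All 8 lie on chromosome 5 in the RefSeq annotation of GRCm38.p6, a build other than mm39 of the table, so the annotation was used here for gene order and sequence only. Cyp3a11 and Cyp3a25 are direct neighbours there. The first 60 bases of the coding sequence, from the GENCODE vM21 transcripts (GRCm38), show which members are most alike. They are shown as coding strand from the start codon, with capitals at each base that differs from Cyp3a41a.
Cyp3a41a: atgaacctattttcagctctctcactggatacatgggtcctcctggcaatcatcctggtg
Cyp3a41b: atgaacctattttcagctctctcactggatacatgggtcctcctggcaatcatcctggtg
Cyp3a44: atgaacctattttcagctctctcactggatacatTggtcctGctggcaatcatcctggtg
Cyp3a16: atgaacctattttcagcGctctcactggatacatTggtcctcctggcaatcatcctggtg
Cyp3a11: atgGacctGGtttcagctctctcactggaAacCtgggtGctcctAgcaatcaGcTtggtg
Cyp3a13: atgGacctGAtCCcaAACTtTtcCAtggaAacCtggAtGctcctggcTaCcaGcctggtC
Cyp3a25: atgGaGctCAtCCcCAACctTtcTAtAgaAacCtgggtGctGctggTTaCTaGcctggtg
Cyp3a59: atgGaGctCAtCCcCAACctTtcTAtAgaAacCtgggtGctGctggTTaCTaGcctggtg
In this stretch Cyp3a41b had 0 differences from Cyp3a41a, Cyp3a44 and Cyp3a16 had 2 each, Cyp3a11 had 9, Cyp3a13 had 20, and Cyp3a25 and Cyp3a59 had 23 each.

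Over the whole coding sequence, Cyp3a41a and Cyp3a41b were 99.9% identical, with 2 mismatches in 1515 bases. Cyp3a25 and Cyp3a59 were 97.5% identical, and Cyp3a41a was 95.8% identical to Cyp3a44, 95.2% to Cyp3a11 and 92.7% to Cyp3a16. Cyp3a13 was 75.2% to 76.8% identical to the other members.

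**Figure D1:**
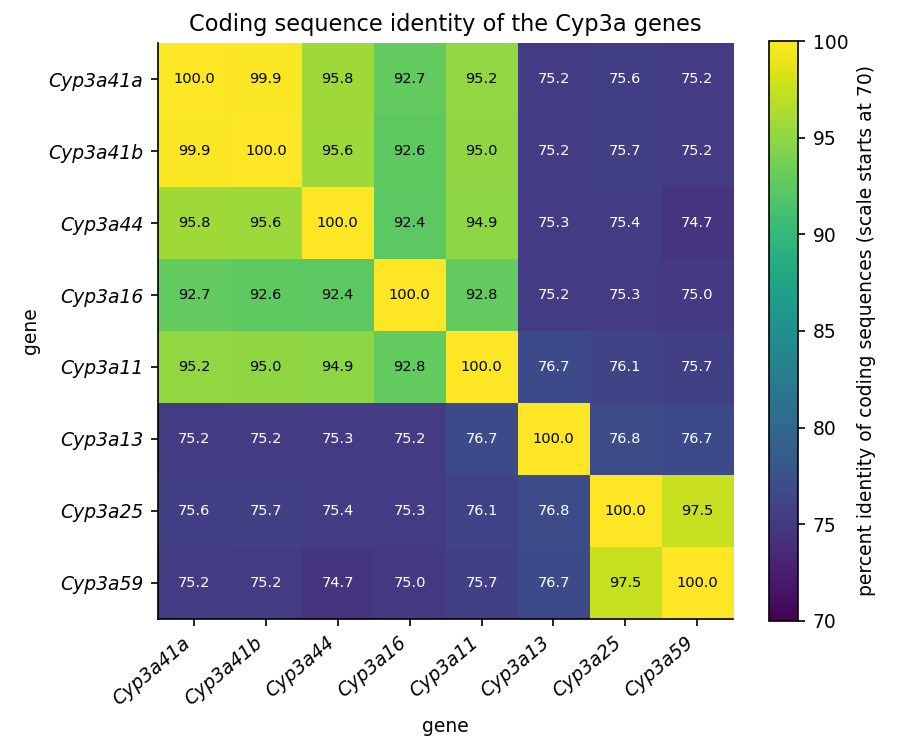
Percent identity of the coding sequences of each pair of Cyp3a genes, from the longest coding transcript of each in GENCODE vM21, on a colour scale that starts at 70. Cyp3a41a, Cyp3a41b, Cyp3a44, Cyp3a16 and Cyp3a11 form one block above 92%, Cyp3a25 and Cyp3a59 form another at 97.5%, and Cyp3a13 stands alone.

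How far reads can be told apart was described by the share of each gene's 31-base words that no other gene's transcripts hold in the same annotation. That share was 99.7% for Cyp3a13, 84.2% for Cyp3a11, 72.7% for Cyp3a16, 54.1% for Cyp3a25, 51.6% for Cyp3a44 and 50.1% for Cyp3a59. It was 4.13% for Cyp3a41b and 0.148% for Cyp3a41a, which is 3 words of 2030, so the division between these 2 genes is close to unresolvable. Taken as 1 gene, Cyp3a41a and Cyp3a41b had 59.7% of their words to themselves, and all 8 members together had 93.9%. The subfamily sum and the sum of Cyp3a16, Cyp3a41a, Cyp3a41b and Cyp3a44 are therefore given beside the single genes.

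The values are TPM, the usual unit for a transcript's part of all RNA in a library after correction for its length, so levels can be compared between genes. They keep no sequencing depth, so the number of reads behind a low value is unknown. The targeted gene Neurl1b, which encodes a ubiquitin ligase of the Notch pathway, had a TPM of 0.688 to 1.22 in the non-targeting mice and 0.295 to 0.351 in the CRISPRi mice, and the groups did not overlap. Of the genes tested, 4.57% had groups apart in the lower direction. With a mean of 0.627 TPM, Neurl1b was below the 1 TPM filter and not among them. In the fit without that filter it did not pass (limma adjusted p = 0.430). Of the 9 hepatocyte markers, none was at 0, and Alb stood at 11518 to 31253 TPM. The Y-linked genes Ddx3y (11.3 to 19.1 TPM) and Eif2s3y (19.3 to 35.7 TPM) were present in all 6 libraries, with overlapping groups. Non-targeting mice 1 and 2 stood apart in different ways. Leaving out mouse 1 raised the number of genes past the threshold from 2 to 2673 (limma, adjusted p below 0.05), and mouse 2 had the highest summed TPM of hepatocyte markers (97019, against 36074 to 51422 in the other 5 libraries) and of erythroid markers (3880, against 490 to 1567).

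Cyp3a11 carried most of the subfamily. It stood at 1832, 1200.0 and 1594 TPM in the non-targeting mice and at 1425, 1638 and 1052 TPM in the CRISPRi mice, which placed it 115th by mean level among the 10598 genes tested. The highest and the lowest of the 3 CRISPRi values lay on either side of the lowest control value, so the groups overlapped. The means were 1542 ± 319 and 1372 ± 297 (SD, n = 3 each). On the log2(TPM + 1) scale that all fold changes in log2 use here, the difference was -0.17 (SE 0.22, limma adjusted p = 0.688 over 10598 genes). Cyp3a11 made up 87.0%, 75.7% and 85.1% of the subfamily sum in the controls and 85.2%, 87.9% and 83.2% in the CRISPRi mice. The difference of the mean shares was 2.84 percentage points (exact two-sided permutation p = 0.6), and it was -0.625 without non-targeting mouse 2, the library with the lowest share.

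By mean TPM over the 6 libraries the order was Cyp3a11, Cyp3a25, Cyp3a41a, Cyp3a13, Cyp3a59, Cyp3a44, Cyp3a41b and Cyp3a16. Of these neighbours, Cyp3a11 lay above Cyp3a25, Cyp3a13 above Cyp3a59, and Cyp3a59 above Cyp3a44 with no overlap of their ranges. Cyp3a25 and Cyp3a41a overlapped, as did Cyp3a41a and Cyp3a13, Cyp3a44 and Cyp3a41b, and Cyp3a41b and Cyp3a16. Cyp3a41a was above Cyp3a13 in 2 of the 6 libraries, non-targeting mice 2 and 3.

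**Figure D2:**
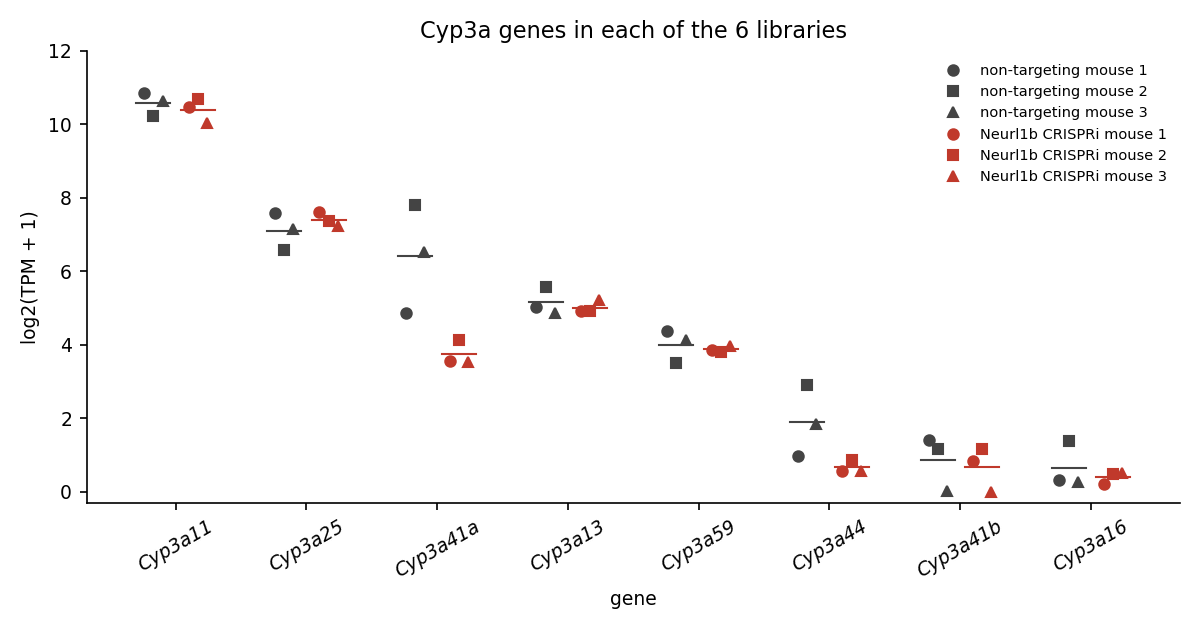
TPM of the 8 Cyp3a genes on a log2(TPM + 1) axis, ordered by mean level, in the non-targeting (dark) and Neurl1b CRISPRi (red) mice, with 1 point per mouse and a line at the group mean. The groups are apart for Cyp3a41a, at 28.3 to 224 against 10.6 to 16.6 TPM, and for Cyp3a44, and they overlap for the other 6 genes.

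The female-predominant genes had the lower values in the CRISPRi mice. Cyp3a41a had a TPM of 28.3, 224 and 91.3 in the non-targeting mice and of 10.8, 16.6 and 10.6 in the CRISPRi mice. Every CRISPRi mouse lay below every control, and the controls differed among themselves by more than the CRISPRi mice did. The CRISPRi mean was 12.6 ± 3.38 against 115 ± 100.04 (SD, n = 3 each), 9.06-fold lower, and the log2 fold change was -2.66 (SE 0.62, limma unadjusted p = 0.00232, adjusted p = 0.310 over 10598 genes), so it did not pass the threshold. A log2 fold change as low or lower was found for 0.142% of the genes tested.

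Cyp3a44 had a TPM of 0.973, 6.47 and 2.60 in the non-targeting mice and of 0.484, 0.836 and 0.481 in the CRISPRi mice. The groups again did not overlap, with non-targeting mouse 2 highest and non-targeting mouse 1 nearest to the CRISPRi mice. Its mean was 5.58-fold lower, with a log2 fold change of -1.24 (SE 0.42, limma unadjusted p = 0.0167, adjusted p = 0.344). That scale understates the change of a gene at this level.

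In no library did Cyp3a44 exceed 5.05% of Cyp3a41a. The ratio was 3.44%, 2.89% and 2.85% in the controls and 4.48%, 5.05% and 4.54% in the CRISPRi mice, so the 2 genes ran closely together over a 21.2-fold range of Cyp3a41a. All 3 CRISPRi mice had a higher ratio than any control (exact two-sided permutation p = 0.1, the smallest value that 3 against 3 allows). Because Cyp3a44 shares 24.4% of its 31-base words with Cyp3a41a, reads of one can be counted to the other.

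The remaining 2 of this group were near the limit of what was listed. Cyp3a41b was at 1.65, 1.22 and 0.00984 TPM in the controls and at 0.778, 1.23 and 0 in the CRISPRi mice. Cyp3a16 was at 0.25, 1.62 and 0.196 in the controls and at 0.154, 0.396 and 0.414 in the CRISPRi mice. Both overlapped between the groups and had a mean below 1 TPM, so they did not pass the filter. In the same limma fit without that filter their log2 fold changes were -0.20 (SE 0.46, adjusted p = 0.861) and -0.26 (SE 0.32, adjusted p = 0.720). The highest Cyp3a16 value was in non-targeting mouse 2, as for Cyp3a41a and Cyp3a44.

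As 1 sum, Cyp3a16, Cyp3a41a, Cyp3a41b and Cyp3a44 stood at 31.2, 234 and 94.1 TPM in the non-targeting mice and at 12.2, 19.0 and 11.5 TPM in the CRISPRi mice. The CRISPRi mean was 14.2 ± 4.15 against 120 ± 104 (SD, n = 3 each), 8.40-fold lower (exact two-sided permutation p = 0.1). Entered as 1 gene in the fit, the sum had a log2 fold change of -2.59 (SE 0.61, limma adjusted p = 0.310). Cyp3a41a itself makes up most of this sum, so the sum is no separate result, and it leaves out Cyp3a11, which shares 19.8% of the 31-base words of Cyp3a41a. The 4 genes made up 1.48%, 14.7% and 5.02% of the subfamily sum in the controls and 0.731%, 1.02% and 0.909% in the CRISPRi mice, a ratio within a library that no scaling of libraries can change.

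Of the 8 members 6 passed the filter, and 0 of these passed an adjusted p of 0.05 in limma, against 0.0189% of all genes tested (2 of 10598). At an unadjusted p below 0.05 there were 2 members, against 13.3% of all genes, or 3.19% in the lower direction. The groups did not overlap for the same 2, Cyp3a41a and Cyp3a44, both lower, against 17.1% of all genes, or 4.57% in the lower direction. The median log2 fold change of the 6 members was -0.16, with 5 below 0, against a median of 0.18 for all genes tested, of which 26% were below 0. After median-of-ratios scaling the median over all genes was -0.023, so values on these scales differ by that shift.

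The call for the pair turned on 1 control library and on how libraries were weighted. Without non-targeting mouse 1, Cyp3a41a had a log2 fold change of -3.43 (limma adjusted p = 0.0173) and Cyp3a44 one of -1.70 (adjusted p = 0.0233), when 25.3% of all genes passed and 2.24% passed as lower. When the libraries were also scaled by median of ratios, both passed (adjusted p = 0.0289 and 0.0408), when 5.41% of all genes passed and 3.39% passed as lower. With array weights, which give each library a weight by its spread, the pair also passed (adjusted p = 0.0232 and 0.0243), when 20.9% of all genes passed and 2.33% passed as lower. Without non-targeting mouse 2, the highest library, Cyp3a41a had a log2 fold change of -1.96 (limma adjusted p = 0.463) and Cyp3a44 one of -0.74 (adjusted p = 0.673). Cyp3a41a and Cyp3a44 had log2 fold changes below 0 in each of the fits with 1 library left out.

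**Figure D3:**
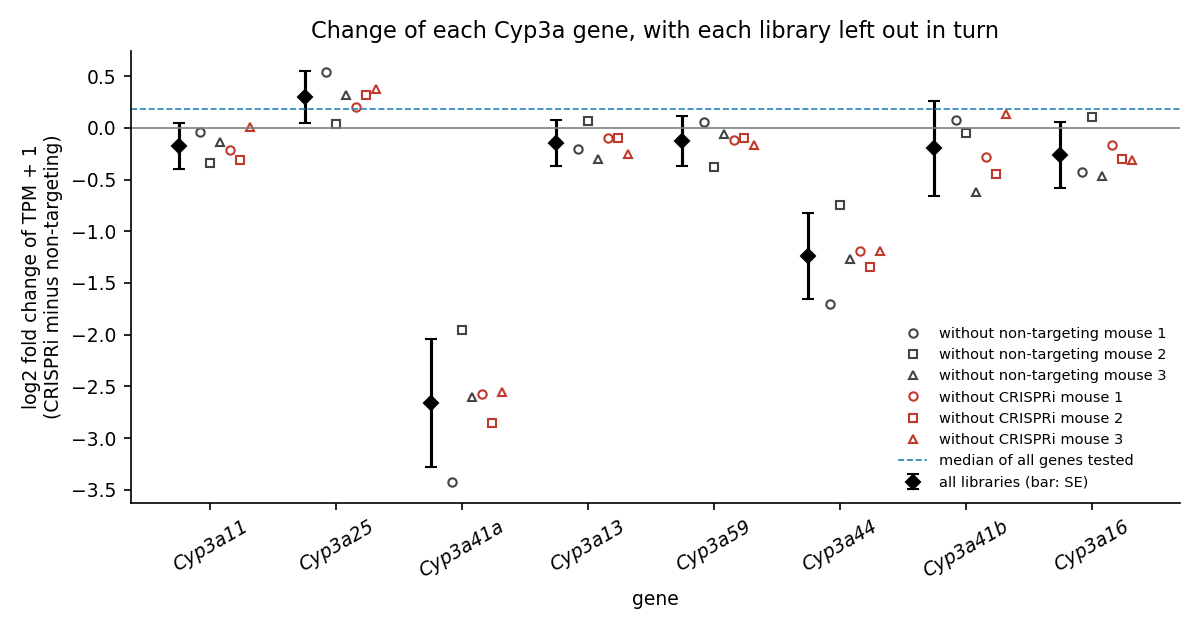
Log2 fold change of TPM + 1 (CRISPRi minus non-targeting) of each Cyp3a gene with all libraries (black, bar SE) and with each library left out in turn (open symbols). The dashed line is the median of all genes tested, 0.18. Cyp3a41a and Cyp3a44 stay below 0 whichever library is left out, at -3.43 to -1.96 and -1.70 to -0.74, while those of the other 6 genes lie between -0.62 and 0.54.

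The spread among the controls was itself large for these genes. The SD of log2(TPM + 1) among the non-targeting mice was 1.47 for Cyp3a41a and 0.96 for Cyp3a44, larger than in 99.3% and 97.7% of the genes tested. The median gene had 0.30 there and 0.13 among the CRISPRi mice. Among the CRISPRi mice Cyp3a41a had an SD of 0.34 and Cyp3a44 one of 0.18. Cyp3a11 had 0.31 and 0.33, so it varied about as much in either group.

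The other Cyp3a symbols of the table were looked at for the same pattern. The pseudogene Cyp3a63-ps shares 18.3% of the 31-base words of Cyp3a44, and it had 0.703, 2.65 and 0.775 TPM in the controls and 0.264, 0.494 and 0.323 in the CRISPRi mice. Its groups did not overlap either, at a low level, with non-targeting mouse 2 highest. With a mean of 0.868 TPM it was below the filter. Of the genes tested, 4.57% had groups apart in the lower direction. Cyp3a57 was below 0.3 TPM in every library, and Cyp3a61-ps1 was listed at 0 in all of them.

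Of the remaining members, Cyp3a25 had the second highest level. It was at 192, 95.4 and 140 TPM in the controls and at 193, 164 and 150 TPM in the CRISPRi mice. The groups overlapped, with a log2 fold change of 0.30 (SE 0.25, limma adjusted p = 0.553), close to the median of all genes tested. It was 0.54 without non-targeting mouse 1 (limma adjusted p = 0.0971). Leaving out mouse 2 of that group, the lowest library for this gene, gave 0.039. Its closest copy Cyp3a59 had 19.8, 10.3 and 16.6 TPM in the controls and 13.5, 13.1 and 14.5 in CRISPRi mice (log2 fold change -0.13, SE 0.24, limma adjusted p = 0.783). The sum of both, which reads divided between them cannot change, was 211, 106 and 157 TPM in the controls and 207, 178 and 165 in CRISPRi mice (exact two-sided permutation p = 0.5). Non-targeting mouse 2 had the lowest value of both genes, the reverse of its place for Cyp3a41a.

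Cyp3a13, a form expressed in liver and intestine, is the member whose reads are least shared. It had 31.8, 47.0 and 28.0 TPM in the controls and 29.1, 29.1 and 36.2 TPM in the CRISPRi mice. Only non-targeting mouse 2 stood above the rest, with a log2 fold change between the groups of -0.15 (SE 0.22, limma adjusted p = 0.731). Of the 5 intestinal markers, Fabp2 was at 68.7 to 113 TPM, Vil1 was at 0.171 to 1.61, and 1 marker was at 0 in every library.

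Cyp3a25 and Cyp3a59 each had a full-length coding transcript of 13 exons and a 12-exon transcript that the annotation classes as a target of nonsense-mediated decay, the pathway that degrades mRNA with an early stop codon. The coding sequence is 1512 bases in the first and 450 bases in the second. For Cyp3a25 the decay-class transcript made up 39.5%, 69.5% and 85.9% of the gene's TPM in the controls and 50.3%, 61.1% and 62.9% in the CRISPRi mice. It was thus the larger part in 5 of 6 libraries, and the groups overlapped. For Cyp3a59 it made up 29.5%, 69.3% and 66.6% in the controls and 70.9%, 45.2% and 38.4% in the CRISPRi mice. The full-length transcripts of both genes together had 129, 32.3 and 25 TPM in the controls and 99.95, 70.5 and 64.4 in the CRISPRi mice, while the decay-class transcripts had 81.5, 73.4 and 132 against 107, 106 and 100.2. Only 1.62% of the 31-base words of the full-length Cyp3a25 transcript and 0.106% of those of its decay-class transcript are in no other Cyp3a transcript, so this division is uncertain.

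**Figure D4:**
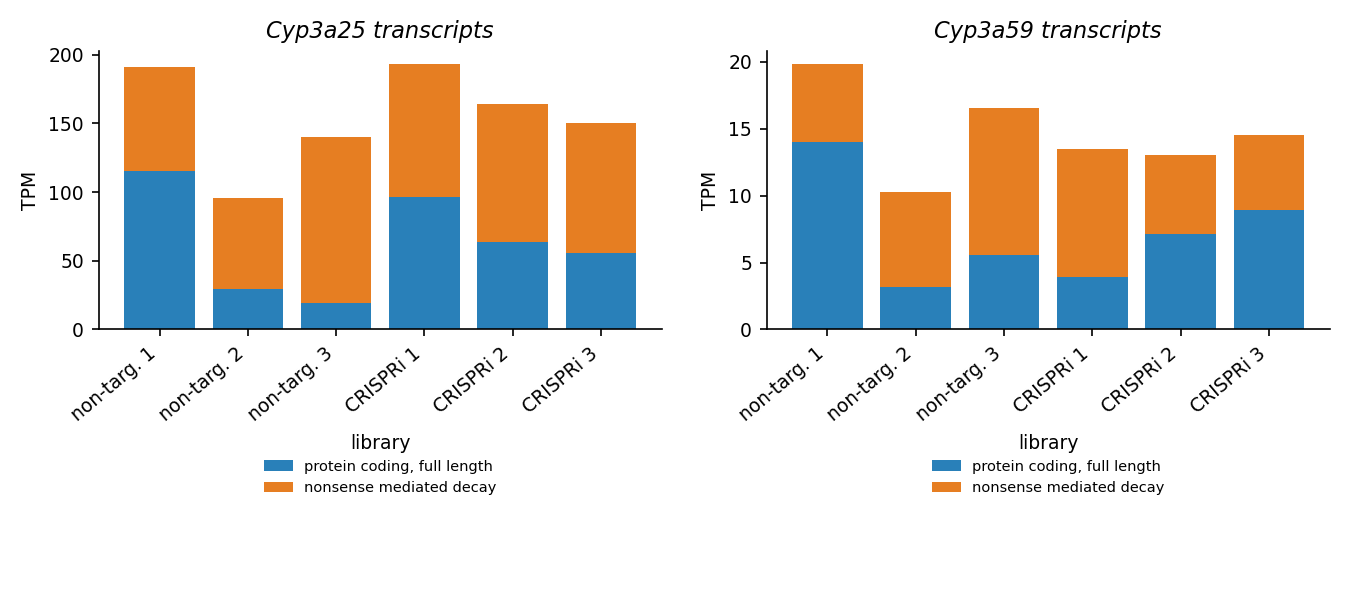
TPM of the full-length coding (blue) and nonsense-mediated decay (orange) transcripts of Cyp3a25 and Cyp3a59 in each library, stacked. The orange part of Cyp3a25 is between 66.3 and 121 TPM, while the blue part ranges from 19.5 to 115 TPM with the highest value in non-targeting mouse 1.

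The subfamily sum served as the check on read sharing, but a coarse one. Cyp3a11 alone had SDs of 319 and 297 TPM in the 2 groups, while the 4-gene sum had means of 120 and 14.2 TPM. The subfamily sum therefore cannot show whether reads of Cyp3a41a were counted to Cyp3a11. This sum was 2107, 1586 and 1873 TPM in the non-targeting mice and 1673, 1864 and 1264 TPM in the CRISPRi mice. The groups overlapped, since 2 of the CRISPRi mice lay above non-targeting mouse 2. The means were 1855 ± 261 and 1600.2 ± 306 (SD, n = 3 each), and the log2 ratio of the means was -0.21 (exact two-sided permutation p = 0.4). In limma, with all members as 1 gene, the log2 fold change was -0.22 (SE 0.19, adjusted p = 0.563). With median-of-ratios scaling the log2 ratio was -0.45 and the groups no longer overlapped (exact two-sided permutation p = 0.1). Without Cyp3a11 the sum was 274, 386 and 279 TPM against 248, 226 and 213 TPM, lower in every CRISPRi mouse (exact two-sided permutation p = 0.1). Of all genes tested, 4.57% had groups apart in that direction. This smaller sum contains Cyp3a41a, so it is no separate result. Of its other parts, Cyp3a25 and Cyp3a59 together had means of 158 TPM in the controls and 183 TPM in the CRISPRi mice. Cyp3a13 had means of 35.6 and 31.5 TPM.

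**Figure D5:**
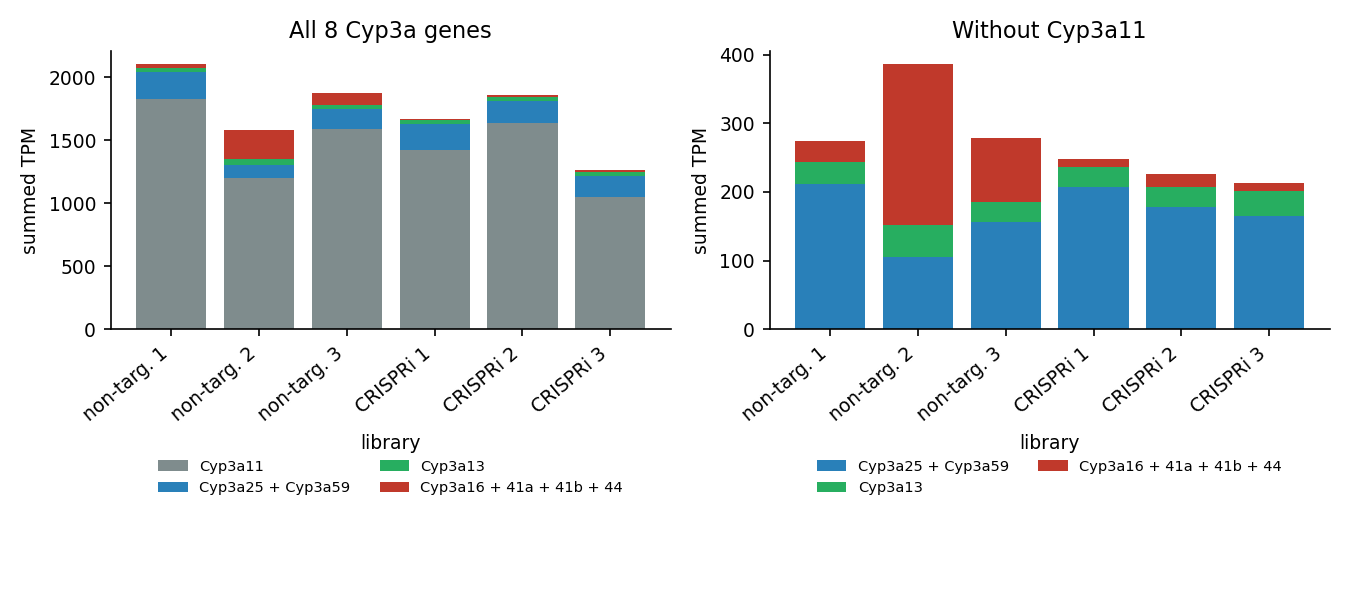
Summed TPM of the Cyp3a genes in each library, stacked by gene or group of near-identical genes, for all 8 members (left) and without Cyp3a11 (right). Cyp3a11 fills most of every bar on the left. On the right, the sum of Cyp3a16, Cyp3a41a, Cyp3a41b and Cyp3a44 (red) is 234 TPM in non-targeting mouse 2 and between 11.5 and 19.0 TPM in the CRISPRi mice.

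The promoters were compared by sequence alone. The RefSeq promoter table (GRCm38.p6) held all 8 members. The windows from 250 bases before to 50 after the annotated start are shown for Cyp3a41a and Cyp3a44, whose values ran together, and for Cyp3a11, whose values did not follow theirs. Capitals mark matches on either strand to AGGTCA or AGTTCA, the half-sites that nuclear receptors such as PXR bind, and to TATAAA. The windows lie on the minus strand at chr5:145720087-145720386 for Cyp3a41a, chr5:145805825-145806124 for Cyp3a44 and chr5:145879805-145880104 for Cyp3a11.
Cyp3a41a: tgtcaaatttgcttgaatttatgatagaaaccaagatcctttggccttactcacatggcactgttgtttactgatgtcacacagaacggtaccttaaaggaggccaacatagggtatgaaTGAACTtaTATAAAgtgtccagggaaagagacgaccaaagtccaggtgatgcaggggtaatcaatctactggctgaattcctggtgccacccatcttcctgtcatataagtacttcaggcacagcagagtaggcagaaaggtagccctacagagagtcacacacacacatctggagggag
Cyp3a44: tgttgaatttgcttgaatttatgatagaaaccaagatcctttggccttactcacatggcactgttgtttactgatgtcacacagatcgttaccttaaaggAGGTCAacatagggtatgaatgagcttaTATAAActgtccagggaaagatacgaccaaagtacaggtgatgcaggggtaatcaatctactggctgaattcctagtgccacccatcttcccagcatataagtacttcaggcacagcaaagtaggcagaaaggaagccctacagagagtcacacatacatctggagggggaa
Cyp3a11: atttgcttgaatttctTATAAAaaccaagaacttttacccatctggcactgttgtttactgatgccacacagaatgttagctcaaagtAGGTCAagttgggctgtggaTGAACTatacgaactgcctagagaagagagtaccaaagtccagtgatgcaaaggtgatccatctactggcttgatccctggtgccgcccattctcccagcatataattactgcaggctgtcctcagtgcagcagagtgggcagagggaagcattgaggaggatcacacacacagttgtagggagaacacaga
The window of Cyp3a44 was 93.0% identical to that of Cyp3a41a, and those of Cyp3a41b, Cyp3a16 and Cyp3a11 were 97.3%, 92.1% and 70.6% identical to it. Cyp3a41b and Cyp3a16, which overlapped between the groups, had a mean below 1 TPM. The division of reads between Cyp3a41a and Cyp3a41b is also close to unresolvable. Whether the promoter sequences bear on the values was not tested. Cyp3a11 had AGGTCA at -162 and AGTTCA at -142, counted to the first base of the match from the annotated start, Cyp3a41a had AGTTCA at -130, and Cyp3a44 had AGGTCA at -150. Of 32851 windows of this length, 16.3% held AGGTCA, 14.0% held AGTTCA and 13.6% held TATAAA. TTCNNNGAA, the motif of the growth hormone effector STAT5, was in 8.30% of all windows and in 0 of the windows of the 8 members, which says only that these letters are not in this window.

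Genes that act with the Cyp3a enzymes were taken from fixed lists. Among 23 tested xenobiotic receptors and liver transcription factors, 0 passed in limma, with a median log2 fold change of 0.09 against 0.18 for all genes. Nr1i2, which encodes PXR, had 48.2, 23.5 and 30.8 TPM in the controls and 47.8, 47.8 and 43.9 in CRISPRi mice (log2 fold change 0.49, SE 0.25, limma adjusted p = 0.404). Non-targeting mouse 1 was at the level of the CRISPRi mice. Nr1i3, which encodes CAR, had a log2 fold change of 0.39 (SE 0.29) and Hnf4a, a master factor of hepatocyte genes, one of 0.06 (SE 0.22). Onecut1, a liver factor that takes part in sex-dependent gene expression, had 0.981, 2.08 and 1.99 TPM in the controls and 0.677, 0.659 and 0.524 in the CRISPRi mice (limma adjusted p = 0.323).

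All 6 electron donors had a log2 fold change above 0 (median 0.32), and 0 passed in limma. Over all genes tested, 26% were below 0 and the median was 0.18. Por, the reductase that feeds all microsomal P450 enzymes, had 163, 96.2 and 95.5 TPM in the controls and 190, 149 and 145 in the CRISPRi mice. Pgrmc1, a haem-binding partner of P450 enzymes, had 1254, 853 and 907 TPM against 1431, 1327 and 1389 TPM (log2 fold change 0.48, SE 0.18, limma adjusted p = 0.344). Its groups did not overlap, and 12.5% of all genes tested had groups apart in the higher direction. With median-of-ratios scaling 4 of the 6 electron donors were above 0. Of 16 genes of haem synthesis and breakdown, 0 passed and the median was 0.16. Alas1, the rate-limiting enzyme of haem synthesis, had 361, 94.9 and 162 TPM in the controls and 489, 287 and 320 TPM in the CRISPRi mice.

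Other targets of the xenobiotic receptors went both ways. Of 30 tested, 0 passed in limma, 24 were above 0, and the median was 0.46. Over all genes tested, 26% were below 0 and the median was 0.18. The drug efflux gene Abcc3 had 114, 63.7 and 89.5 TPM in the controls and 159, 146 and 136 in CRISPRi mice (log2 fold change 0.75, SE 0.22). Cyp2c54 had 10.2, 24.2 and 20.7 TPM against 3.63, 7.18 and 2.52 TPM (log2 fold change -1.84, SE 0.38). The carboxylesterase gene Ces2a had -0.85 (SE 0.20). The limma adjusted p of these 3 genes was 0.259 to 0.323. Without non-targeting mouse 1, when 25.3% of all genes passed and 2.24% passed as lower, 10 of the 30 passed as higher and 2 as lower. With median-of-ratios scaling added, 1 passed as higher and 2 as lower, when 5.41% of all genes passed. In the list of other drug metabolism genes, 0 of 25 passed and the median was 0.03. Cyp2j5, an arachidonic acid epoxygenase, had a log2 fold change of -2.29 (SE 0.38) there, and Ces3a one of -2.59 (SE 0.75).

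Growth hormone signalling and sex-biased genes were listed because Cyp3a41a and Cyp3a44 are female-predominant. Of 20 tested female-biased genes other than Cyp3a, 0 passed in limma, 14 were below 0 and the median log2 fold change was -0.60. Over all genes tested, 26% were below 0 and the median was 0.18. The bile acid and steroid sulfotransferase gene Sult2a1 had 70.9, 134 and 105 TPM in the controls and 15.8, 16.6 and 41.4 in CRISPRi mice (log2 fold change -2.12, SE 0.38), and Sult2a5 had -1.81 (SE 0.31). Of 18 tested male-biased genes, 0 passed, 13 were below 0 and the median was -0.55, so that lists of either sex bias lay lower. Mup3, a major urinary protein gene, had 39.5, 259 and 349 TPM in the controls and 12, 23.5 and 7.03 in CRISPRi mice (log2 fold change -3.50, SE 0.76). Non-targeting mouse 1 was the lowest control for Sult2a1, Mup3, the female-biased Cyp2c40 and the male-biased Ugt2b1, as it was for Cyp3a41a. For Sult2a5 and the male-biased Mup21, non-targeting mouse 2 was the lowest control, at 10.5 and 11.9 TPM. In the fit without non-targeting mouse 1, there were 5 female-biased and 7 male-biased genes past the threshold. All were lower, when 2.24% of all genes passed as lower.

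Of 17 growth hormone signalling genes, 0 passed and the median was 0.06. The receptor gene Ghr had 65.9, 110 and 67.6 TPM in the controls and 54.5, 57.7 and 48.9 in CRISPRi mice (log2 fold change -0.55, SE 0.22, limma adjusted p = 0.355). Its groups did not overlap, and 4.57% of all genes tested had groups apart in the lower direction. Igfals, a liver product that carries IGF1, had -0.87 (SE 0.23), and Igf1 had -0.65 (SE 0.23). Stat5b, the transcription factor that growth hormone activates, had 0.26 (SE 0.21). Cux2, a female-predominant factor in mouse liver, had 1.82, 4.10 and 0.243 TPM in the controls and 1.71, 1.68 and 5.44 in the CRISPRi mice, so it did not share the pattern of Cyp3a41a. After median-of-ratios scaling the median turned negative for 4 lists, at -0.12 for receptors and liver factors, -0.08 for haem genes, -0.12 for growth hormone signalling and -0.20 for other drug metabolism. The sex-biased lists stayed lower at -0.79 (female) and -0.77 (male). The 9 hepatocyte markers also had a median below 0, at -0.39 with all libraries and -0.63 after that scaling. That rested on non-targeting mouse 2. Without it, and without that scaling, their median was 0.013, against 0.13 for all genes tested. The female-biased list then had a median of -0.32 and the male-biased list one of -0.62.

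The genes most like Cyp3a41a over the 6 libraries were sought among 1307 tested genes with an SD of log2(TPM + 1) of at least 0.5, by the root mean square difference of their mean-centred log2 profiles. The nearest were C8a, a terminal complement component, at 0.33, the desaturase gene Fads1 at 0.58 and Wfdc21 at 0.59, while the SD of the Cyp3a41a profile itself was 1.74. C8a had 18.7, 153 and 43.4 TPM in the controls and 5.61, 10.2 and 3.11 in the CRISPRi mice. For Cyp3a11 the nearest were Ntrk2, Brms1l and Cebpe at 0.25 to 0.30, and for the subfamily sum Plaat3, Brms1l and Ntrk2 at 0.30 to 0.31. Those distances are about as large as the SDs of the 2 profiles, 0.30 and 0.26, and profiles that vary as little were not among the genes compared, so these genes cannot be called near.

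Markers of other cell types were measured in the same libraries. Cells without the plasmid carry no tag, so these values give neither the number of cells of a type nor their RNA per cell. How RNA of other cell types came to be in the pull-down was not tested. The 7 stellate cell and fibroblast markers summed to 10.9 to 24.6 TPM in the controls and 27.1 to 39.8 TPM in the CRISPRi mice, and each had a higher mean in the CRISPRi mice. The 10 Kupffer cell and macrophage markers summed to 64.4 to 127 TPM in the controls and 101 to 147 TPM in the CRISPRi mice, again with a higher mean for each of the 10. Other lists were mixed. A higher CRISPRi mean was found for 6 of 7 endothelial, 3 of 5 cholangiocyte, 4 of 6 lymphocyte, 4 of 5 intestinal and 0 of 6 erythroid markers. A log2 fold change below 0 was found for 26% of all genes tested, with a median of 0.18. The median of the Kupffer cell and macrophage list was 0.458. Without non-targeting mouse 1 it was 0.252, against 0.291 for all genes. The stellate cell and fibroblast list had 0.579 and, without that mouse, 0.665. The 9 hepatocyte markers summed to 39565 to 97019 TPM in the controls and 36074 to 51422 TPM in the CRISPRi mice, with non-targeting mouse 2 highest, as it was for Cyp3a41a. The part of these markers in the difference of Cyp3a41a and Cyp3a44 was not tested. Within a library, Cyp3a41a as a share of Cyp3a11, another gene of hepatocytes, was 1.55%, 18.7% and 5.73% in the controls and 0.758%, 1.01% and 1.01% in CRISPRi mice (exact two-sided permutation p = 0.1).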

How the data were processed

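The authors deposited TPM, made with kallisto for the build mm39 per the submitters' processing notes, for 117486 transcripts with a gene symbol beside each. The sources used here do not give the kallisto version, transcript set or filters. Column sums were 999999.8 to 1000000.2, and depth is unknown. The guide and mouse number come from the sample titles. The mice were separate, so p-values measure the spread between mice.

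Transcripts were summed by symbol, leaving out 168 without one (116 to 143 TPM per library). Genes whose mean reached 1 TPM (10598) entered limma 3.58.1 (R 4.3.3) as log2(TPM + 1), with a trended prior and no covariate, after the script was tested on simulated data. Two-sided p-values were adjusted by Benjamini-Hochberg, with a threshold of 0.05. A fold called "-fold" is a ratio of mean TPM. Sums, shares and ratios were compared by the exact two-sided permutation test of scipy 1.17.1, in which 3 against 3 cannot go below 0.1. Coding sequences were aligned with Biopython 1.88.

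The members, lists and named genes were chosen with earlier results of these data known. Named are all members, other Cyp3a symbols, fixed regulators, up to 3 genes per list with the smallest p, and the 3 genes nearest in profile. Xist was not analysed here. Alternatives were other pseudocounts, filters, scalings, priors and weights, the mouse number as a block, each mouse left out, and a transcript-level fit.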

Additional observations from a re-analysis of the deposited data

How the results depend on the processing

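The number of members past the threshold was 0 with all libraries and stayed 0 under 19 of 22 alternatives. It was 2 with array weights, when 2210 of all genes passed, and 2 without non-targeting mouse 1 with median-of-ratios scaling, when 570 did. Over the fits that left out 1 mouse it ranged from 0 to 2, and the number of all genes from 0 to 2673. That number was 2 with all libraries, 0 with a pseudocount of 5, without the filter and with quantile normalization, and 1 with a mean TPM of at least 5. Directions that changed belonged to members near 0. With 1 mouse left out, the log2 fold change ranged from -0.34 to 0.0082 for Cyp3a11, from -0.30 to 0.067 for Cyp3a13, from -0.46 to 0.11 for Cyp3a16, from -0.62 to 0.14 for Cyp3a41b and from -0.38 to 0.062 for Cyp3a59. With array weights it was 0.092 for Cyp3a11 and 0.15 for Cyp3a41b. The difference of the Cyp3a11 share ranged from -0.625 to 5.04 percentage points. The cause of these changes was not tested. Cyp3a41a, Cyp3a44, the subfamily sum and the 4-gene sum were lower, and Cyp3a25 higher, under every alternative run for them, and the 4-gene sum had log2 ratios of -3.52 to -2.14. The titles number the mice but do not say whether equal numbers pair them. Deviations of same-numbered mice had correlations of 0.061, -0.096 and -0.28 across genes, which cannot settle this. With a replicate block no member passed, but the SE of the pair was smaller. Cyp3a41a then had an SE of 0.39 (limma adjusted p = 0.0734), against 0.62 without the block. Cyp3a44 had one of 0.30 (limma adjusted p = 0.183), against 0.42. In that setting the log2 differences were -0.22 for the subfamily sum and -2.67 for the 4-gene sum. TPM keep no depth, so the precision of Cyp3a16, Cyp3a41b and Cyp3a44 is unknown.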
